A study of Rattus norvegicus with 11 samples.

Results

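Solute carriers, the genes whose symbols begin with Slc, were described in REF52 cells, an established line of rat embryo fibroblasts, on 11 Affymetrix RAE230A arrays. A gene was chosen by its platform symbol (Slc followed by a digit, on a probe set with no other symbol) and by its signal level. Where a gene had several probe sets, the brightest by mean log2(signal + 16) over all 11 arrays stood for it, and the gene was kept where that mean was 7 or above. Of 227 such genes 133 were kept and 94 were dimmer. The array names 10411 genes by a single symbol in all. 1 further Slc gene was left out by the rule. The choice used only the mean level over all arrays, and the levels are therefore given as a description. Just inside the limit lay Slc40a1 (mean 7.14), Slc29a1 (7.11) and Slc7a10 (7.10), and just outside it Slc27a2 (6.95), Slc3a1 (6.94) and Slc44a4 (6.93). Of the 133 genes, 2 match by symbol but do not encode transporters: Slc7a6os is named for lying opposite Slc7a6, and Slc4a1ap encodes an adaptor protein. Genes were put in substrate classes by family number alone. Slc7a6os thus counts in the amino acid class and Slc4a1ap in that of inorganic ions. A class may therefore hold genes of another substrate or another part of the cell.

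All cells were first grown in 10% serum and then held in 0.25% serum for 48 hours. They then received a control adenovirus (CMV) or an adenovirus expressing E2F1, a transcription factor that drives genes of S phase, and medium was then added back. That medium was deprivation medium, serum medium, or serum medium with LY294002, an inhibitor of phosphoinositide 3-kinase. The 6 groups have 2 arrays each, except the deprived cells with control virus, which have 1, so 5 arrays carry control virus and 6 carry E2F1. Nothing in the labels says that arrays of 1 group stem from different cultures, so each p-value reflects the spread between these arrays alone, and that spread may be technical. The control group received the same deprivation and an adenovirus, so no group shows uninfected cells.

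The arrays had been scaled to the same trimmed mean signal of 500, and their median signals lay between 173 and 208. The arrays of a group correlated at 0.959 to 0.984 over probe sets, lowest for the pairs with LY294002 (0.963 and 0.959). RNA quality was read from control genes, as the log2 signal of their 3′ probe sets minus that of their 5′ ones. This 3′ to 5′ difference was 0.51 to 0.76 on the deprived arrays, 0.90 on array 2 of the cells with E2F1 and LY294002, and 0.12 to 0.33 elsewhere. Of 10 fibroblast markers 9 lay at a mean of 7 or above, the exception being Thy1 (signals 36 to 124). The fibroblast list summed to 84981 to 124351 with control virus and 78033 to 102372 with E2F1. For the epithelial list the sums were 219 to 657 and 175 to 443, with Cdh1 at 3.04 to 6.55. Of its 6 genes 1, Krt8, lay at a mean of 7 or above (124 to 574). For the endothelial list (4 of 6 genes measured) they were 60.6 to 135 and 130 to 191. The leukocyte sums were 556 to 693 and 453 to 698, with Ptprc at 3.19 to 51.9. Of the 6 leukocyte genes 3 lay at a mean of 7 or above: Aif1 (161 to 327), Cd14 (126 to 326) and Csf1r (89.3 to 168). The neuronal sums were 394 to 487 and 360 to 579, with 1 of 4 genes, Syp (184 to 423), at 7 or above. Those of kidney, liver and neuron transporters (5 of 7 measured) were 232 to 360 and 128 to 329. In the endothelial and transporter lists 0 genes lay at 7 or above. In RNA from whole cultures, fewer cells of a type and less RNA per cell cannot be told apart.

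Solute carriers are membrane proteins that move small molecules without hydrolysing ATP themselves. Some are uniporters, which let a solute such as glucose run down its gradient, and others are symporters or exchangers, which couple one solute to the gradient of another, often sodium. The SLC25 family sits mostly in the inner mitochondrial membrane and passes metabolites between the matrix and the cytosol. In a dividing cell, amino acid, phosphate, nucleotide sugar and metal transporters supply material for protein, nucleic acid, glycan and enzyme synthesis.

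The promoters of 4 genes are shown. Slc25a10, Slc25a13 and Slc38a1 had the largest rises with E2F1, and Slc49a4, lower with E2F1, is shown for its match to the amino acid response core. Each run holds the 250 bases before the annotated start, 5′ to 3′ on the gene's strand, from RefSeq (GRCr8). They lie at chr10:106264146-106264395 (plus strand, Slc25a10), chr4:35328361-35328610 (minus strand, Slc25a13), chr7:129681402-129681651 (minus strand, Slc38a1) and chr11:78500710-78500959 (plus strand, Slc49a4). Capitals mark matches, on either strand, to the CCAAT box (CCAAT), the GC box (GGGCGG) and the amino acid response element core (TGATGNAAN), which was searched because several amino acid transporters are known ATF4 targets.
Slc25a10: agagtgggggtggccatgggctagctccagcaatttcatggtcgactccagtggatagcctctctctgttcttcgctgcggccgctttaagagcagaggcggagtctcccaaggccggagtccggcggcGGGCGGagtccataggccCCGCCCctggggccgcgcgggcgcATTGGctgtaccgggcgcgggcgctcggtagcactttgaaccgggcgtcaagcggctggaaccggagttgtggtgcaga
Slc25a13: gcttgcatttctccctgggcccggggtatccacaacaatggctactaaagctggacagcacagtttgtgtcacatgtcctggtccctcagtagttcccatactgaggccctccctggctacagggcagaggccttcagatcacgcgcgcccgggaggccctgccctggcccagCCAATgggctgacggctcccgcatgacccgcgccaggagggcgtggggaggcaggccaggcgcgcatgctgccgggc
Slc38a1: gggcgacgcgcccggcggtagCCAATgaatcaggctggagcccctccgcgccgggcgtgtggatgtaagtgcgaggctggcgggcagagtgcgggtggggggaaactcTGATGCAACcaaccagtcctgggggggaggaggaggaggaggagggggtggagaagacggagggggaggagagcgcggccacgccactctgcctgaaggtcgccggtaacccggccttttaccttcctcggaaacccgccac
Slc49a4: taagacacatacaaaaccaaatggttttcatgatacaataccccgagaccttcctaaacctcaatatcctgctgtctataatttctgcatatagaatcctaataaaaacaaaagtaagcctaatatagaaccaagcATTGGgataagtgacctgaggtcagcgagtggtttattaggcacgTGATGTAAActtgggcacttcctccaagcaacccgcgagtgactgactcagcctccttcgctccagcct

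Of the 133 genes 114 had a promoter in that table. An E2F site was sought as TTTGGCGC, TTTCCCGC, TTTCGCGC or TTTGCCGC on both strands. It was in 0 of the 20 promoters of genes called higher with E2F1, in 0 of the 5 of genes called lower and in 2 of the 89 others, Slc25a11 and Slc4a4. The share was 1.73% of all 33469 promoters and 3.45% of the 6472 of genes at a mean of 7 or above. The amino acid response core was in 1 of 20, Slc38a1, with TGATGCAAC starting 142 bases before the start, in 1 of 5, Slc49a4, with TGATGTAAA at 69 bases, and in 1 of 89, Slc35a2. It was in 3.38% of all promoters and 1.61% of those of equally bright genes. A CCAAT box was in 8 of 20 (40%) against 35.7% of equally bright genes, and a GC box in 14 of 20 (70.0%) against 61.3%. These are matches of letters, and no match says only that these letters are not in the 250 bases searched.

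E2F1 expression, averaged over the 3 media, raised 23 of the 133 genes and lowered 9. The largest rises were in Slc38a1, a sodium-coupled transporter of glutamine and other neutral amino acids (4.39-fold), and in the mitochondrial carriers Slc25a10 for dicarboxylates (3.69-fold) and Slc25a13, or citrin, for aspartate and glutamate (2.62-fold). The largest falls were in Slc24a3, a potassium-dependent sodium-calcium exchanger (2.64-fold), Slc17a5, the lysosomal sialic acid carrier sialin (2.38-fold), and Slc6a6, the taurine transporter (2.19-fold). At least 2-fold changes were seen in 9 of the genes that rose and 3 of those that fell. Calls are those of limma at a Benjamini-Hochberg adjusted p under 0.05 over all probe sets, and folds are on the log2(signal + 16) scale, which understates the change of dim genes.

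The 32 genes called are 24.1% of the 133. Among all 15866 probe sets the share was 16.5% (9.23% higher, 7.25% lower), and among all 7006 genes at a mean of 7 or above it was 25.4% (14.9% higher, 10.4% lower). The carriers were thus called about as often as other genes of their brightness. Their median log2 change was -0.09, against -0.04 over all probe sets, and 52 of the 133 had an unadjusted p under 0.05. Counts of unadjusted p, here and below, are given without their share over all probe sets. They are not calls and are not read as an effect on the carriers. Quantile normalization gave 34 calls, 21 higher and 13 lower, in place of 23 and 9. Without the 3 deprived arrays, which also had high 3′ to 5′ differences, 13 genes were called, 8 higher and 5 lower. The higher ones were Slc38a1, Slc25a10, Slc25a13, Slc44a1, Slc35e1, Slc25a22, Slc7a6 and Slc8a1, and the lower ones Slc24a3, Slc17a5, Slc6a6, Slc25a1 and Slc48a1. The other 19 of the 32 were not called without these arrays. Adding the 3′ to 5′ value of each array to the fit gave 36 genes, 25 higher and 11 lower.

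The signals of the 6 E2F1 arrays all lay above those of the 5 control virus arrays for 12 carriers and all below for 4, and overlapped for 117. Over all probe sets, many of them dimmer than the carriers, the shares were 6.05% and 3.59%. The 12 were Slc38a1, Slc3a2, Slc7a6, Slc8a1, Slc39a10, Slc25a10, Slc25a13, Slc25a22, Slc23a2, Slc27a4, Slc35e1 and Slc16a1. The 4 were Slc17a5, Slc25a36, Slc48a1 and Slc22a17, of which Slc22a17 was not called (-0.32 ± 0.14, adjusted p = 0.154 by limma). Several probe sets exist for 29 of the 133 genes. For called genes 9 further probe sets were measured, of which 5 were called, with the sign of the one used. The 4 not called had that sign too, and were probe sets of Slc16a6 (0.90 ± 0.30), Slc8a1 (0.60 ± 0.21), Slc24a3 (-0.62 ± 0.20) and Slc23a2 (0.14 ± 0.25).

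**Figure D1:**
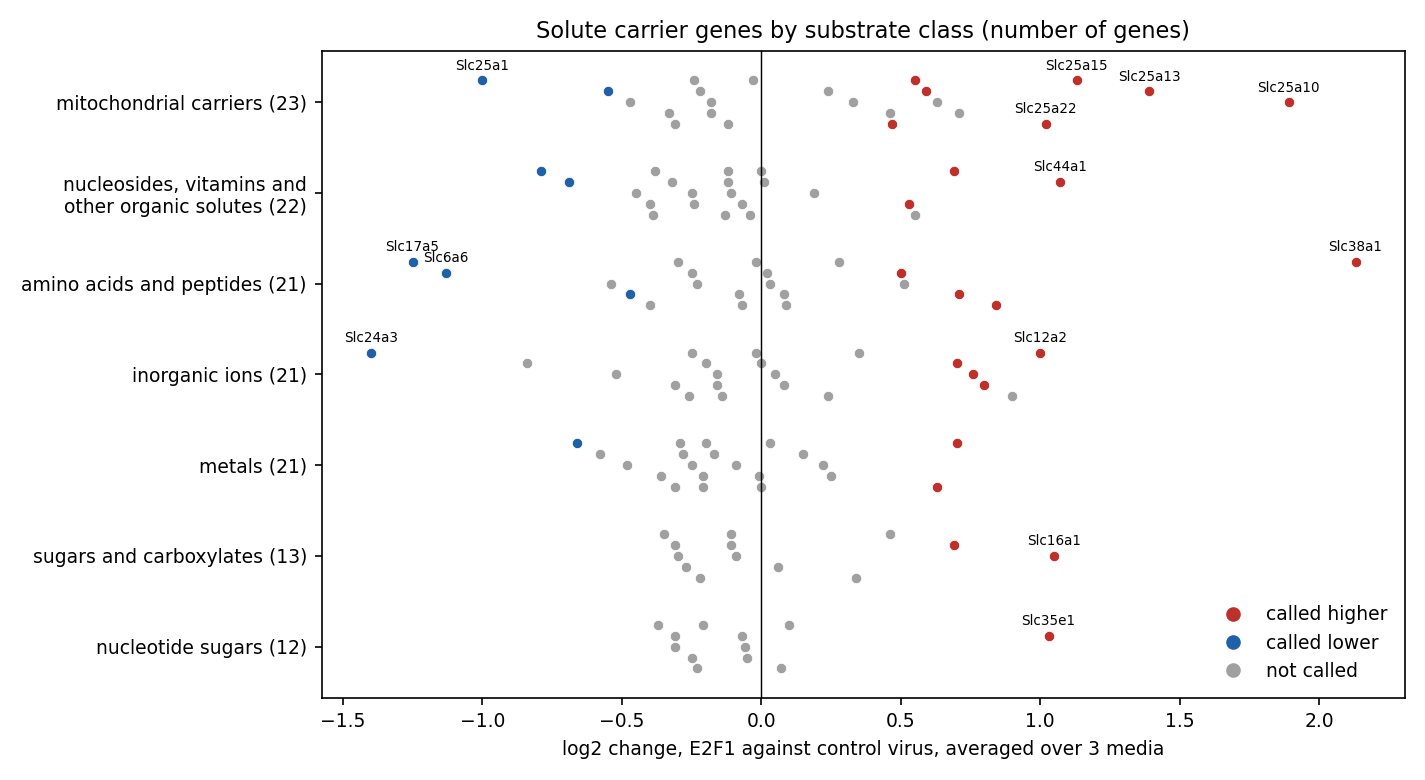
Log2 change (x axis, E2F1 against control virus, averaged over the 3 media) of each of the 133 genes, 1 point per gene, in rows by substrate class, with colour for genes called higher or lower. Mitochondrial carriers hold 7 of the 23 higher calls and are 23 of the 133 genes. Among all genes at a mean of 7 or above 14.9% were called higher, and no difference between classes was tested. The largest rise, at 2.13, is in the amino acid class.

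Among the 21 genes for amino acids and peptides 4 rose and 3 fell, with a median log2 change of -0.02. Slc38a1 had a signal of 189 with control virus and 1380 and 1224 with E2F1 in deprivation. In serum its signals were 225 and 240 against 573 and 543, and with LY294002 195 and 239 against 767 and 2217. Every E2F1 array thus exceeded every control virus array, and the value of 2217 came from the array with the 3′ to 5′ difference of 0.90. The log2 change was 2.13 ± 0.26 (SE, limma adjusted p = 0.00236) and 1.88 without that array. Its other probe sets changed by 1.93 ± 0.13 and 2.67 ± 0.16, both called.

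Slc3a2 and Slc7a6 encode the heavy chain 4F2hc and a light chain of cationic and neutral amino acid exchangers, which work as joined pairs. Slc3a2 had a signal of 1929 against 3279 and 3416 in deprivation, 1528 and 1789 against 2698 and 2444 in serum, and 1503 and 2266 against 2863 and 3251 with LY294002. It rose by 0.71 ± 0.14 (limma adjusted p = 0.0118). Slc7a6 had 636 against 1257 and 1216 in deprivation, 568 and 651 against 829 and 897 in serum, and 510 and 432 against 975 and 1058 with LY294002. The rise was 0.84 ± 0.10 (limma adjusted p = 0.00251), and in both genes the E2F1 and control virus arrays did not overlap. Slc7a5, the light chain for large neutral amino acids, changed by 0.51 ± 0.15 and missed the threshold (limma adjusted p = 0.0556). Its arrays overlapped, from 332 to 674 with control virus and from 585 to 906 with E2F1.

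Of the other amino acid genes, Slc15a4, a lysosomal carrier of histidine and peptides, rose by 0.50 ± 0.13 (limma adjusted p = 0.0405). That call was lost without any 1 of 8 single arrays. Slc17a5 fell by 1.25 ± 0.20 (limma adjusted p = 0.00571). Its signals were 398 against 154 and 202 in deprivation, 285 and 271 against 48.6 and 114 in serum, and 238 and 206 against 91.7 and 121 with LY294002, without overlap. Slc6a6 fell by 1.13 ± 0.24 (limma adjusted p = 0.0175). It had 7406 against 4604 and 5331, 5532 and 5197 against 2212 and 2438, and 5445 and 2295 against 1446 and 914 in the same order of media. Its E2F1 arrays were lower within each medium but overlapped across media. Leaving out deprived E2F1 array 1 gave an adjusted p of 0.0542, leaving out array 1 of serum with control virus 0.0514, and leaving out array 1 of serum with E2F1 0.0509. A second Slc6a6 probe set was called as well (-1.79 ± 0.40).

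Slc38a10, a relative of Slc38a1, fell by 0.47 ± 0.12 (limma adjusted p = 0.0298). Its call was lost without any 1 of 7 single arrays, with adjusted p of up to 0.0816. Slc38a2, another glutamine transporter (signals 3289 to 7489 over all arrays), changed by -0.54 ± 0.16 (limma adjusted p = 0.0555). Within the SLC38 family 1 gene was thus called higher and 1 lower. Slc1a5, a glutamine exchanger, changed by 0.28 ± 0.12, and Slc1a3, a glutamate transporter, by 0.08 ± 0.17, both not called. The 14 genes of this class that were not called ran from -0.54 to 0.51.

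Of the 23 genes of the SLC25 family, classed here as mitochondrial carriers, 7 rose and 2 fell, and their median log2 change was 0.24. Slc25a10 exchanges malate or succinate for phosphate. It had a signal of 229 against 1052 and 978 in deprivation, 248 and 282 against 854 and 518 in serum, and 204 and 188 against 893 and 1176 with LY294002. The lowest E2F1 array was above the highest control virus array, and the log2 change was 1.89 ± 0.16 (limma adjusted p = 0.000843). Slc25a13 had 53.7 against 274 and 233, 111 and 118 against 347 and 297, and 119 and 126 against 296 and 184 in the same order. It rose by 1.39 ± 0.14 (limma adjusted p = 0.00135), again without overlap of the arrays.

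Slc25a12, or aralar, is the other aspartate-glutamate carrier. It rose by 0.55 ± 0.10 (limma adjusted p = 0.0105), but its signals in serum were 706 and 794 with control virus and 718 and 673 with E2F1. In deprivation they were 461 against 1129 and 1008, and with LY294002 494 and 548 against 735 and 835. Without the deprived arrays its change was 0.24 and not called (limma adjusted p = 0.324). In serum alone Slc25a13 changed by 1.37 ± 0.23 and Slc25a12 by -0.10 ± 0.17, and this difference between the genes was not tested.

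Slc25a15, the ornithine carrier of the urea cycle, had 176 against 553 and 407 in deprivation, 116 and 124 against 195 and 169 in serum, and 132 and 80.2 against 225 and 463 with LY294002. It rose by 1.13 ± 0.22 (limma adjusted p = 0.0114), with E2F1 arrays higher within each medium. Slc25a22, a glutamate carrier, had 505 against 1365 and 1224, 429 and 341 against 717 and 567, and 404 and 346 against 616 and 961. It rose by 1.02 ± 0.16 (limma adjusted p = 0.00509), and its arrays did not overlap. Slc25a5, an adenine nucleotide translocase of proliferating cells, rose by 0.59 ± 0.12 (limma adjusted p = 0.0130) with 4025 to 5887 on control virus arrays and 5687 to 9107 on E2F1 arrays. Its relative Slc25a4 changed by -0.03 ± 0.11, with 8690 to 10880 and 8523 to 10581. Slc25a29, a carrier of basic amino acids, rose by 0.47 ± 0.13 (limma adjusted p = 0.0459), a call lost without any 1 of 8 single arrays.

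Slc25a1, the citrate carrier that exports citrate for fatty acid synthesis, fell by 1.00 ± 0.20 (limma adjusted p = 0.0131). Its signals were 2445 against 1416 and 1701 in deprivation, 3868 and 3141 against 1336 and 1814 in serum, and 2949 and 1631 against 1116 and 808 with LY294002. The arrays were lower with E2F1 within each medium and overlapped across media. Slc25a36, a pyrimidine nucleotide carrier, fell by 0.55 ± 0.11 (limma adjusted p = 0.0143), with 536 to 774 on control virus arrays and 407 to 506 on E2F1 arrays, without overlap. Slc25a3, the phosphate carrier, changed by -0.22 ± 0.12 and was not called. Among the 14 carriers not called, changes ran from -0.47 to 0.71.

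**Figure D2:**
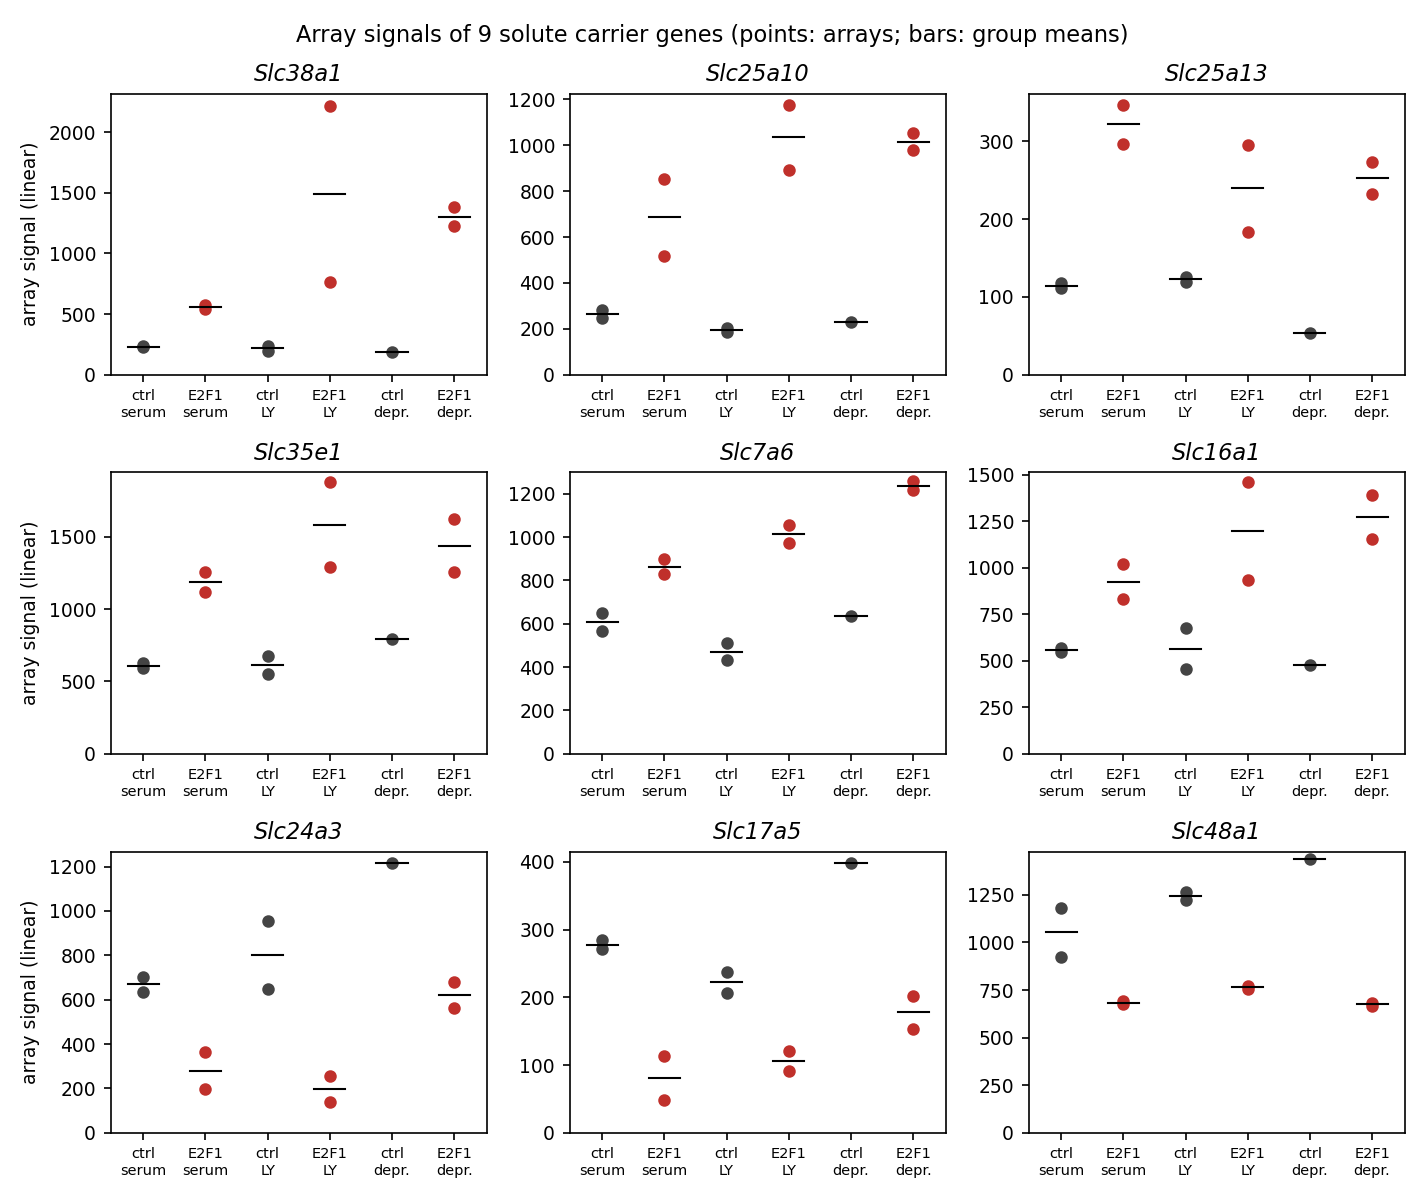
Array signals (y axis, linear scale from 0) of 9 genes in the 6 groups (x axis: ctrl, control virus; LY, LY294002; depr., deprivation), with 1 point per array and a bar at the group mean. Slc38a1 and Slc25a10 are higher on every E2F1 array than on any control virus array, and the 2 arrays with E2F1 and LY294002 differ for Slc38a1 (767 and 2217).

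Among 13 genes for sugars and carboxylates 2 rose and 0 fell, and both encode monocarboxylate transporters. Slc16a1, or MCT1, carries lactate and pyruvate. It had 475 against 1389 and 1153 in deprivation, 545 and 568 against 1018 and 830 in serum, and 453 and 677 against 933 and 1461 with LY294002. No array overlapped, and the log2 change was 1.05 ± 0.17 (limma adjusted p = 0.00647). Slc16a6, a relative, rose by 0.69 ± 0.16 (limma adjusted p = 0.0226), with 115 to 292 on control virus arrays and 218 to 387 on E2F1 arrays, with overlap. That call was lost without any 1 of 4 single arrays. Slc16a7, or MCT2, changed by 0.46 ± 0.18 (limma adjusted p = 0.126). The glucose transporters Slc2a1 (0.06 ± 0.13) and Slc2a3 (-0.31 ± 0.19) were not called, and Slc2a1 had 264 to 335 with control virus and 252 to 363 with E2F1.

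For inorganic ions 4 of 21 genes rose and 1 fell. Slc12a2, the sodium-potassium-chloride cotransporter NKCC1, had 1214 against 3477 and 3460 in deprivation, 1882 and 1883 against 3311 and 2856 in serum, and 2013 and 3064 against 3397 and 5590 with LY294002. It rose by 1.00 ± 0.17 (limma adjusted p = 0.00782), with the highest control virus array above the lowest E2F1 array. Slc8a1, the sodium-calcium exchanger NCX1, rose by 0.80 ± 0.14 (limma adjusted p = 0.00727), with 503 to 788 on control virus arrays and 795 to 1347 on E2F1 arrays, without overlap. Slc12a5, a potassium-chloride cotransporter known from neurons, rose by 0.76 ± 0.20 (limma adjusted p = 0.0398) at signals of 68.7 to 341, a call lost without any 1 of 7 single arrays. Slc20a1, the phosphate transporter PiT1, rose by 0.70 ± 0.16 (limma adjusted p = 0.0246). It had 2187 against 4409 and 4196, 3467 and 2789 against 4525 and 4067, and 4156 and 2386 against 4837 and 5224. Leaving out either deprived E2F1 array, array 2 of serum with control virus or array 1 of serum with E2F1 ended its call, at adjusted p of up to 0.0708.

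Slc20a2, or PiT2, changed by 0.05 ± 0.10 in this average and was not called. Slc24a3 had 1214 against 562 and 678 in deprivation, 634 and 704 against 198 and 362 in serum, and 647 and 954 against 137 and 257 with LY294002. It fell by 1.40 ± 0.23 (limma adjusted p = 0.00611). A second probe set was not called (-0.62 ± 0.20, limma adjusted p = 0.072). By the first, its arrays were lower with E2F1 within each medium, while the second deprived E2F1 array (678) exceeded the lowest control virus array (634). Slc4a4, a sodium bicarbonate cotransporter, changed by 0.90 ± 0.31 and was not called (limma adjusted p = 0.0893).

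Of 21 metal transporter genes 2 rose and 1 fell, with a median of -0.20. Slc39a10, the zinc importer ZIP10, had 439 against 1125 and 983 in deprivation, 740 and 733 against 1000 and 1041 in serum, and 708 and 498 against 818 and 767 with LY294002. It rose by 0.70 ± 0.12 (limma adjusted p = 0.00817), and the groups did not overlap. Without the deprived arrays the change was 0.43 and not called (limma adjusted p = 0.139). Slc30a4, a zinc exporter of vesicles, rose by 0.63 ± 0.13 (limma adjusted p = 0.0133), with 515 to 1233 on control virus arrays and 911 to 1799 on E2F1 arrays. Slc41a1, a magnesium transporter, fell by 0.66 ± 0.10 (limma adjusted p = 0.00529). Its signals were 370 against 171 and 169, 212 and 168 against 161 and 172, and 267 and 270 against 155 and 151. In serum its groups overlapped, and they were separate in the other media. The iron exporter Slc40a1 (-0.58 ± 0.26) and the iron importer Slc11a2 (-0.20 ± 0.14) were not called.

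Of 22 genes for nucleosides, vitamins and other organic solutes 3 rose and 2 fell. Slc44a1, a choline transporter, had 165 against 512 and 392 in deprivation, 112 and 97.3 against 249 and 201 in serum, and 148 and 236 against 309 and 408 with LY294002. It rose by 1.07 ± 0.16 (limma adjusted p = 0.00498), with overlap across media, and its 2 other probe sets rose by 1.34 ± 0.20 and 0.79 ± 0.14. Slc23a2, a vitamin C transporter, rose by 0.69 ± 0.15 (limma adjusted p = 0.02), with 565 to 908 on control virus arrays and 943 to 1227 on E2F1 arrays. Slc27a4, a fatty acid transport protein, rose by 0.53 ± 0.14 (limma adjusted p = 0.0363), with 801 to 1145 on control virus arrays and 1232 to 1653 on E2F1 arrays. A second Slc23a2 probe set was not called (0.14 ± 0.25, limma adjusted p = 0.767), and the mean of both gave 0.41 (adjusted p = 0.0964). The call of Slc23a2 was lost without any 1 of 4 single arrays as well, and that of Slc27a4 without any 1 of 8. The nucleoside transporters Slc29a1 (-0.12 ± 0.11) and Slc29a2 (0.01 ± 0.11) were not called.

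Slc48a1, a haem transporter of endosomes and lysosomes, had 1439 against 667 and 684 in deprivation, 1183 and 923 against 676 and 692 in serum, and 1225 and 1267 against 757 and 773 with LY294002. The lowest control virus array was above the highest E2F1 array, and the change was -0.79 ± 0.11 (limma adjusted p = 0.00327). Slc49a4, a lysosomal membrane protein, had 719 against 291 and 360, 461 and 403 against 301 and 312, and 448 and 606 against 331 and 416. It fell by 0.69 ± 0.13 (limma adjusted p = 0.0121), with overlap at 403 and 416. Of 12 genes of the nucleotide sugar family SLC35, which mostly serve the Golgi and endoplasmic reticulum, 1 rose and 0 fell. That gene was Slc35e1, whose substrate is not given here, with 796 against 1622 and 1253 in deprivation, 591 and 624 against 1258 and 1121 in serum, and 676 and 552 against 1288 and 1877 with LY294002. It rose by 1.03 ± 0.15 (limma adjusted p = 0.00380), and the arrays did not overlap. The other 11 ran from -0.37 to 0.10.

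Within single media fewer carriers passed the threshold, at larger standard errors. In serum limma called 0 of the 133, where 0.353% of all probe sets were called, and 32 carriers had an unadjusted p under 0.05. The smallest p was that of Slc25a13 (1.37 ± 0.23, limma adjusted p = 0.0733), followed by Slc17a5 (-1.68 ± 0.32, 0.0809) and Slc25a10 (1.28 ± 0.25, 0.0859). Other settings called between 0 and 5 genes in serum.

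With LY294002 E2F1 raised 5 carriers and lowered 3, which is 6.02% against 5.41% of all probe sets (3.78% higher, 1.63% lower). The carriers were chosen for brightness, and the share among genes of like brightness is not given for single media. In the average that share was above the one of all probe sets (25.4% against 16.5%). Those higher were Slc38a1 (2.51 ± 0.42), Slc25a10 (2.30 ± 0.25, limma adjusted p = 0.00786), Slc25a15 (1.51 ± 0.35), Slc35e1 (1.33 ± 0.23) and Slc7a6 (1.09 ± 0.17). Those lower were Slc24a3 (-1.97 ± 0.36), Slc39a13, a zinc transporter of the secretory pathway (-0.97 ± 0.21), and Slc41a1 (-0.75 ± 0.16). Slc39a13 had 1719 and 1515 with control virus and 993 and 675 with E2F1 under LY294002, but 1387 and 1240 against 1260 and 1361 in serum. Slc25a10 was called with each of the 11 arrays left out in turn. The count of 8 fell to 4 without either control virus array in serum or either deprived E2F1 array, to 5 without either E2F1 array in serum, to 2 without either control virus array with LY294002 and to 3 without array 2 of the E2F1 pair. It was 0 without both second arrays with LY294002. The arrays of these 2 groups differed most within pairs (median difference over the 133 genes 0.32 and 0.34, against 0.16 to 0.18 in the other groups).

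In deprivation E2F1 raised 5 carriers and lowered 2, which is 5.26% against 2.87% of all probe sets (2.19% higher, 0.681% lower), with 1 control virus array. The share among genes of like brightness is not given here either, so 5.26% is not read as an excess. Those higher were Slc38a1 (2.68 ± 0.51), Slc25a10 (2.07 ± 0.31), Slc25a13 (1.95 ± 0.28, limma adjusted p = 0.0224), Slc39a10 (1.23 ± 0.24) and Slc25a12 (1.18 ± 0.20). Those lower were Slc48a1 (-1.07 ± 0.21) and Slc41a1 (-1.05 ± 0.20). The count of 7 fell to 0 without either deprived E2F1 array and to 2 without any 1 of the 4 arrays in serum without LY294002. Slc25a10 and Slc25a13 were called in 8 of the 10 fits that left out 1 array.

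**Figure D3:**
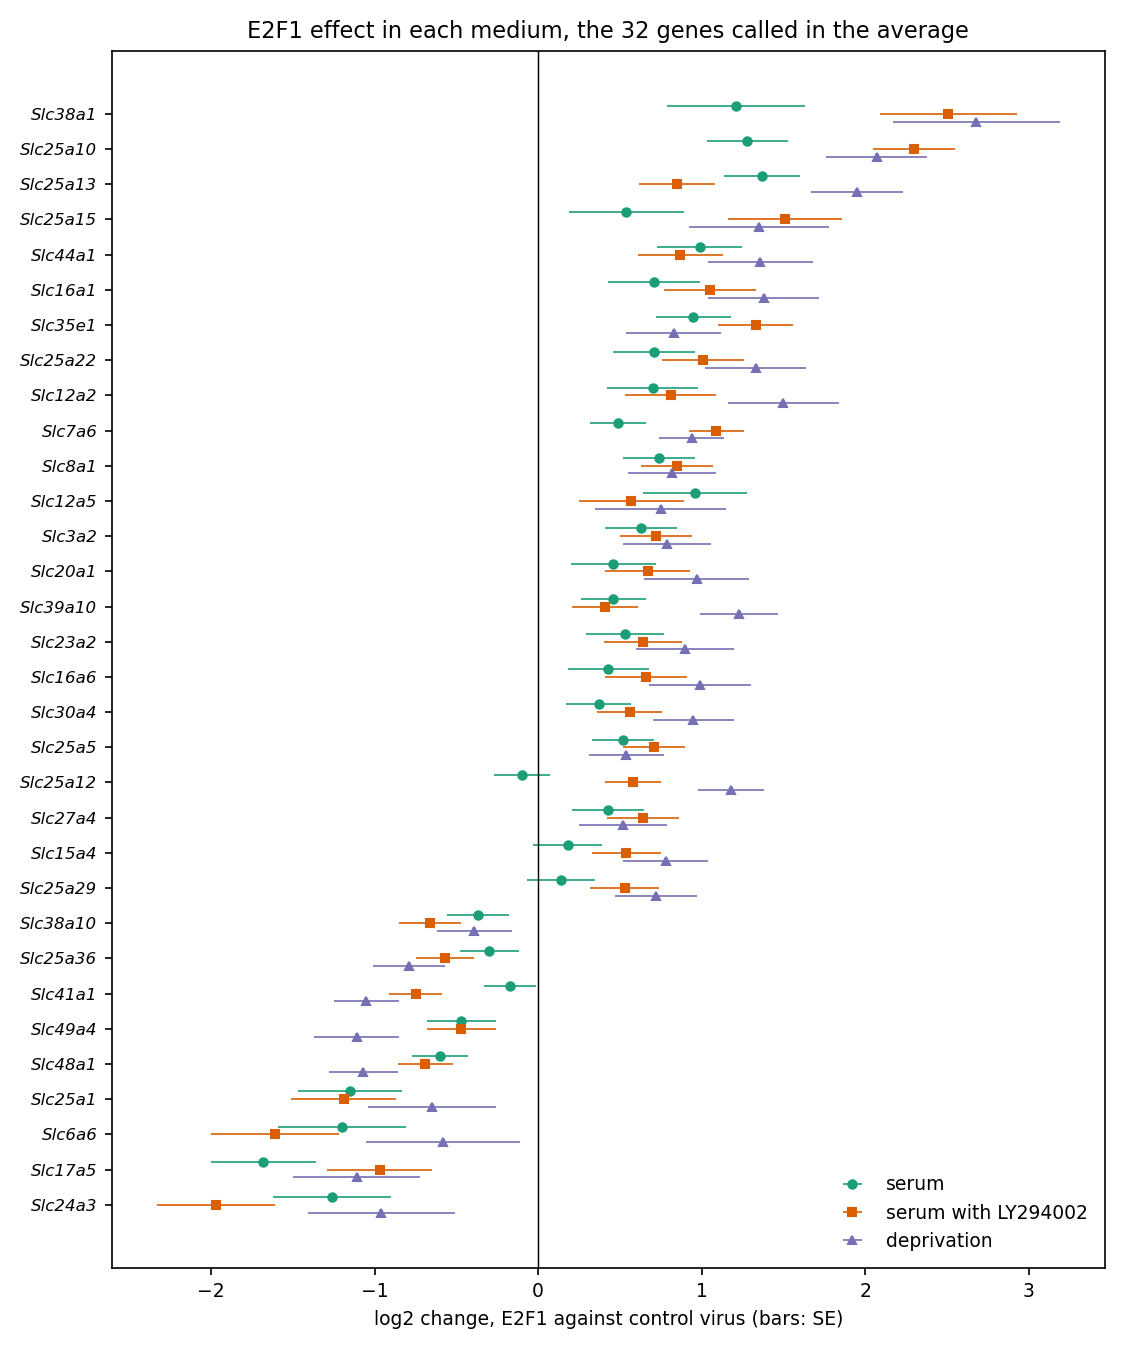
Log2 change with E2F1 (x axis, bars are SE) in serum, with LY294002 and in deprivation for the 32 genes called in the average (rows). Most points of a gene lie on the same side of 0 in the 3 media, and for Slc25a12 the value in serum is -0.10 and the value in deprivation 1.18.

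Differences of the E2F1 effect between media were tested directly. With LY294002 against serum 0 of the 133 genes were called, and 11 had an unadjusted p under 0.05. The smallest p was that of Slc20a2, whose E2F1 effect was lower with LY294002 (-1.09 ± 0.23, limma adjusted p = 0.567). In deprivation against serum 0 were called as well, with 11 at an unadjusted p under 0.05. The effect on Slc25a12 was higher in deprivation (1.29 ± 0.26, limma adjusted p = 0.269) and that on Slc25a42, a carrier of coenzyme A, lower (-1.46 ± 0.31, limma adjusted p = 0.289). In both comparisons limma called 0 of all 15866 probe sets (0%). An effect called in one medium and not in another is thus not shown to differ between them.

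LY294002 itself gave 0 calls among the carriers with either virus, and 0 of all probe sets (0%). Unadjusted p under 0.05, given without the share over all probe sets, were seen for 11 carriers with control virus and 24 with E2F1. Slc20a2 had the smallest p with control virus, with signals of 489 and 516 without and 1107 and 1167 with LY294002 (1.15 ± 0.16, limma adjusted p = 0.288). With E2F1 its signals were 864 and 735 without and 858 and 807 with the inhibitor. The smallest p with E2F1 was that of Slc38a10 (-0.75 ± 0.19, limma adjusted p = 0.426), with 1102 and 1300 without and 740 and 676 with LY294002. In both cases the arrays with and without the inhibitor were separate, but the change did not pass the adjustment over all probe sets.

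Deprivation against serum gave 0 calls among the carriers with either virus, where 0.24% of all probe sets were called with control virus and 0.233% with E2F1. Unadjusted p under 0.05, again without the share over all probe sets, were seen for 17 carriers with control virus and 29 with E2F1. With control virus the smallest p was that of Slc1a5, at 512 in deprivation and 184 and 229 in serum (1.26 ± 0.25, limma adjusted p = 0.110). With E2F1 they were those of Slc25a25, an ATP-magnesium and phosphate carrier, at 472 and 460 in deprivation and 107 and 117 in serum (1.91 ± 0.39, limma adjusted p = 0.0880), and of Slc25a29 (1.03 ± 0.21, limma adjusted p = 0.0880). On the single deprived control virus array Slc25a25 had 142. The 3′ to 5′ difference moved with deprivation, and with it in the fit 0 carriers were called as well. Centring each array on its median moved the median of all probe sets for deprivation with E2F1 from -0.10 to 0.01, and for the difference of the E2F1 effect in deprivation from -0.13 to 0.01.

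**Figure D4:**
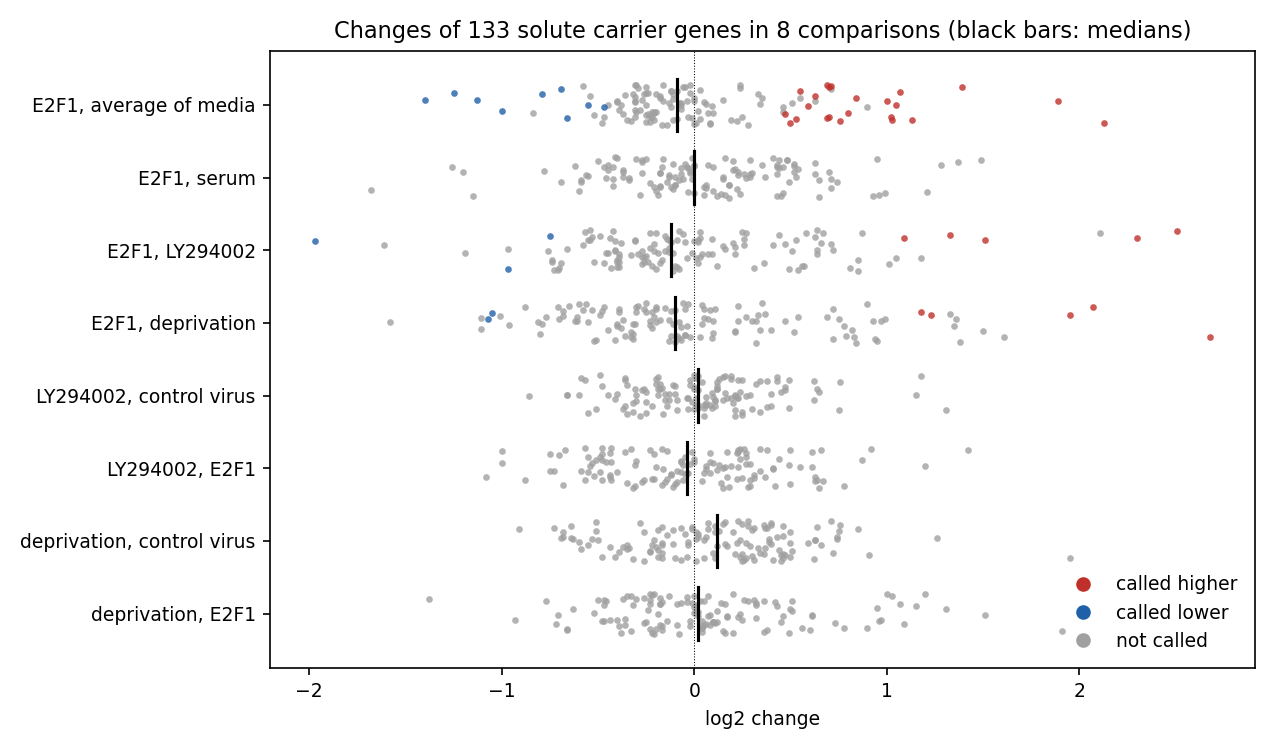
Log2 change (x axis) of the 133 genes in 8 comparisons (rows), 1 point per gene, coloured where called, with a black bar at the median. Calls appear for E2F1 in the average (32), with LY294002 (8) and in deprivation (7), and none in the 5 other rows.

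An F test over the 6 groups, which picks no comparison, called 19 of the 133 genes, 14.3% against 8.14% of all probe sets and 11.5% of genes at a mean of 7 or above. The widest spans among those called were Slc38a1 (2.69 between the lowest and the highest group mean on the log2 scale), Slc6a6 (2.67) and Slc24a3 (2.59). Of the 19, 7 had their highest mean in deprived E2F1 cells and 5 in deprived control virus cells, and 5 had their lowest with control virus and LY294002. Deprived control virus cells also had the lowest value for 4. That group has 1 array, and a single array varies more than a mean of 2. Over all 133 genes the median span was 0.80, against 0.81 over all probe sets. The median difference within a pair of arrays was 0.22 for the 133 genes. A span over 6 group means is not the same measure as a difference between 2 arrays, and it tends to be larger. The 19 fell to 0 without either deprived E2F1 array, to 1 and 3 without arrays 1 and 2 of serum with control virus, to 1 and 5 without arrays 1 and 2 of serum with E2F1, and to 12 without array 2 of LY294002 with control virus.

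Pumps, channels and partner proteins that work with solute carriers were taken from a list of 66 genes, of which 53 were measured. The list also holds transporters of the ABC family, such as Abcb6. Its shares are thus not those of pumps, channels and partners alone. In the average over media 9 rose and 1 fell, 18.9% of the 53 against 16.5% of all probe sets, with a median of -0.02 against -0.04. Among all genes bright enough for the level limit of the carriers 25.4% were called. The listed genes were not chosen by level, so no share here is read as an excess or a lack. Tfrc, the transferrin receptor that brings in iron, rose by 1.51 ± 0.21 (limma adjusted p = 0.00380), and Atp2b1, a calcium pump of the plasma membrane, by 1.34 ± 0.18 (limma adjusted p = 0.00315). Atp1b1, a subunit of the sodium-potassium pump that maintains the gradient many carriers use, rose by 0.90 ± 0.20 (limma adjusted p = 0.0223). Trpv2, a cation channel, fell by 0.87 ± 0.22 (limma adjusted p = 0.0312) at control virus signals of 37 to 71.1. Bsg, a chaperone that monocarboxylate transporters need at the membrane, changed by -0.01 ± 0.12. Emb, listed with Bsg among the transporter chaperones and partners, rose by 0.64 ± 0.15 (limma adjusted p = 0.0258). In serum 0 of the 53 were called. With LY294002 Tfrc (2.13 ± 0.34) and Atp2b1 (1.39 ± 0.28) rose, which is 3.77% against 5.41% of all probe sets. In deprivation Atp2b1 rose (1.85 ± 0.35) and Abcb6, a porphyrin transporter, fell (-1.86 ± 0.35), or 3.77% against 2.87%. In the 6 comparisons of media or of E2F1 effects 0 were called.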

How the data were processed

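Total RNA of REF52 cells was labelled with biotin from 6 µg and hybridised to 11 arrays, per the labels' protocols. Each deposited value is a linear signal intensity of 1 probe set, as made by the authors. MAS5 and RMA are named in the submitters' processing notes, with neither role nor version stated there.

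Of 15923 probe sets 57 controls were left out and 15866 tested. Signals were taken as log2(signal + 16) without further scaling. The 6 group means were fitted with limma 3.58.1 in R 4.3.3 (lmFit, eBayes without trend), leaving 5 residual degrees of freedom. The lone array of deprived control virus cells was taken to vary as the pairs do. Benjamini-Hochberg adjustment ran within each of 10 comparisons and the F test, at a threshold of 0.05. Errors are standard errors. The number of arrays limits the precision. Symbols came from GEO's platform annotation: 12783 probe sets have 1 symbol, 312 several and 2771 none, and all 133 genes were found in RefSeq (GRCr8) by symbol. The steps were tested on simulated data. Simulated E2F1 changes of 1 log2 were recovered for 82% of changed probe sets in the average, 14% in serum, 24% with LY294002 and 1% in deprivation. For changes of 2 log2 the shares were 100%, 85%, 82% and 74% in the same order. Few calls within a single medium thus do not show that changes of such size are absent.

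The genes, classes, partner list and markers were chosen with earlier results of these data known. Named genes were up to 8 called genes per direction and comparison with the largest change, the 2 of smallest p in a class with none named so (no class needed this), 27 genes listed in advance, the 3 genes on either side of the level limit and up to 4 called partners per comparison. A further 12 called genes, the members of smallest p where 0 were called, a few relatives of called genes and the partner gene Emb were added after their values were seen. Alternatives were 2 scalings, offsets of 1 and 64, array weights, a replicate block, trend and robust settings, dropping the dimmest 30% of probe sets, the compared groups alone, all probe sets of a gene, all Slc genes, a 3′ to 5′ covariate, and arrays left out. Leaving out the 3 deprived arrays was chosen after seeing the data.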

Additional observations from a re-analysis of the deposited data

How the results depend on the processing

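The count of 32 genes for E2F1 averaged over media stayed within 1.5 times in 22 of 23 alternatives. It was 24 to 36 with 10 of the 11 arrays left out in turn and 13 without the 3 deprived arrays, where fewer arrays were used. The lone array of deprived control virus cells was not left out alone in comparisons that use its group, nor in the F test. Their ranges, and the calls of single genes said to be lost without single arrays, thus do not cover that array. Of 1503 values of named genes 0 changed direction while called. Most alternatives use the same or nearly the same arrays, so a called change had little room to reverse. Of these values 1240 were graded the same, 221 weaker, 15 stronger and 27 as moved. In serum the count of 0 became 2 with the 3′ to 5′ covariate, 5 with array weights, 1 with all probe sets of a gene and 3 without the dimmest probe sets. With LY294002 the count of 8 became 3 with the covariate, 1 with array weights, 0 for the compared groups alone and without both second arrays, 16 with trend and robust settings, 5 with offset 1, 15 with offset 64 and 17 without the dimmest, and ran from 2 to 10 with 1 array left out. In deprivation the 7 became 13, 17, 0, 17, 12, 2, 14 and 14 under the same settings in the same order, and ran from 0 to 10. For deprivation with E2F1 array weights gave 13 and leaving out both second arrays 9, with 0 to 2 for single arrays, and LY294002 with E2F1 gave 0 to 3. The F test's 19 became 30 with array weights, 29 with trend and robust settings, 5 with offset 1 and 31 without the dimmest, and 0 to 25 with 1 array left out. Apart from settings with fewer arrays or fewer probe sets, the cause was not tested. The comparisons of LY294002 with control virus, of deprivation with control virus and both differences of the E2F1 effect gave 0 under every alternative run. The average was not fitted on the compared groups alone, since it uses all groups.

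The replicate numbers do not pair the arrays: differences within pairs correlated at -0.02 to 0.07 between groups, except for the pairs with LY294002 (0.30). With the replicate block the counts were 30 for the average, 0 in serum, 6 with LY294002, 1 in deprivation, 7 for the F test and 0 for the other 6 comparisons.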

Other observations

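Among the 94 dimmer Slc genes limma called 2 in the average over media. Slc46a1, the folate and haem transporter, fell by 0.91 ± 0.21 (limma adjusted p = 0.0254), with signals of 88.0 to 207 with control virus and 26.3 to 110 with E2F1. Slc5a7, the choline transporter of cholinergic neurons, had a change of -0.56 ± 0.12 (limma adjusted p = 0.0207) at signals of 26.9 to 42.5 and 9.27 to 36.2, near the offset of 16. With LY294002 Slc17a7, a vesicular glutamate transporter, fell by 1.36 ± 0.27 (limma adjusted p = 0.0339), with 110 to 147 on all control virus arrays and 34.3 to 132 on all E2F1 arrays.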
